A study of Mus musculus with 6 samples.

Results

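The 37 genes described here are interferon response genes outside the major histocompatibility complex, picked by symbol from the 24404 rows of a raw count table of mouse heart RNA. All 37 symbols were in the table, and 35 had enough counts to enter the test, among 12487 tested genes in all. The hearts fell into 2 groups of 3 libraries each: KO-TAC, from mice with the genotype miR-204-/-, and WT-TAC, from wild-type mice. Both groups had undergone transaortic constriction, which narrows the aorta and puts a pressure load on the left ventricle, and hearts were taken 5 weeks later, so constriction is shared by the groups and the comparison is one of genotype. No unoperated hearts were analysed here. The labels give no strain, sex or age, do not say whether the deletion is restricted to a cell type, and do not say how many animals a library came from, so p-values measure the spread between these libraries, which may be technical.

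Type I interferons bind a receptor of the chains IFNAR1 and IFNAR2, whose kinases JAK1 and TYK2 phosphorylate STAT2, among other factors. A complex that holds STAT2 and IRF9 enters the nucleus and binds the interferon-stimulated response element (ISRE) in promoters of antiviral genes, while type II interferon acts on the gamma-activated site (GAS). Cardiac myocytes, endothelial cells, fibroblasts and leukocytes can all mount this response, and debris of stressed cells, such as nucleic acid in the cytosol, can set it off without a virus. In bulk tissue, fewer responding cells and less RNA per cell cannot be told apart.

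The deleted microRNA, miR-204-5p, is shown with its seed, bases 2 to 8, in capitals, because the seed decides which transcripts it can pair with. It lies on the plus strand at chr19:22750610-22750631 (RefSeq, GRCm38.p6).
mmu-miR-204-5p: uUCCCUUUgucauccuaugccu

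Library totals ran from 6609315 to 8494415 counts in KO-TAC and from 6411538 to 8571737 in WT-TAC. The column used for KO-TAC replicate 3 carries the leading number of WT-TAC replicate 3 and was matched by its library index. These 2 libraries were also the closest of all 15 pairs, with a median chi-square over genes of 2.99, against 3.83 to 7.12 for the other pairs, so the main counts are also given without KO-TAC replicate 3. Mir204 had 0 counts in all 6 libraries, so the table does not check the deletion. Values are given in CPM, counts relative to library size, with sizes scaled by the trimmed mean of M values. Fold changes are log2 of KO-TAC over WT-TAC with their standard error (SE), so a negative value means lower in KO-TAC. The SE was worked out from the log2 fold change and the F statistic of edgeR's quasi-likelihood test. The 95% intervals use that SE and the degrees of freedom of the test. A gene was called changed where its p, adjusted by Benjamini-Hochberg over the 12487 tested genes, was under 0.05.

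The interferon response genes were not called changed in the hearts lacking miR-204. Of the 35 tested genes 0 passed edgeR's quasi-likelihood test, against 0.024% of all tested genes (3 of 12487, of which 0.00801% were lower and 0.016% higher), and each of the 35 had an adjusted p of 0.999. DESeq2 and limma-voom also called 0 of the 35. In KO-TAC 23 of the 35 had a lower fitted level and 12 a higher one, and their median log2 fold change was −0.21, against 49.8% lower and a median of 0.0012 over all tested genes. At an unadjusted p under 0.05 in edgeR there were 2 genes lower, Gbp7 and Ifit1, and 0 higher, against 2.93% of all tested genes, 1.57% lower and 1.36% higher. The groups did not overlap for 4 genes (11.4% of those tested), Gbp7, Ifit1, Irgm1 and Ifi44, each lower in KO-TAC, where 3.72% of all tested genes had groups that did not overlap in that direction, and for 0 genes higher in KO-TAC, where 4.26% did. Without KO-TAC replicate 3 the median was −0.11, with 21 of the 36 genes then tested lower, 0 called and 3 at an unadjusted p under 0.05 in edgeR. It was −0.34 without KO-TAC replicate 1, with 32 of 36 lower.

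**Figure D1:**
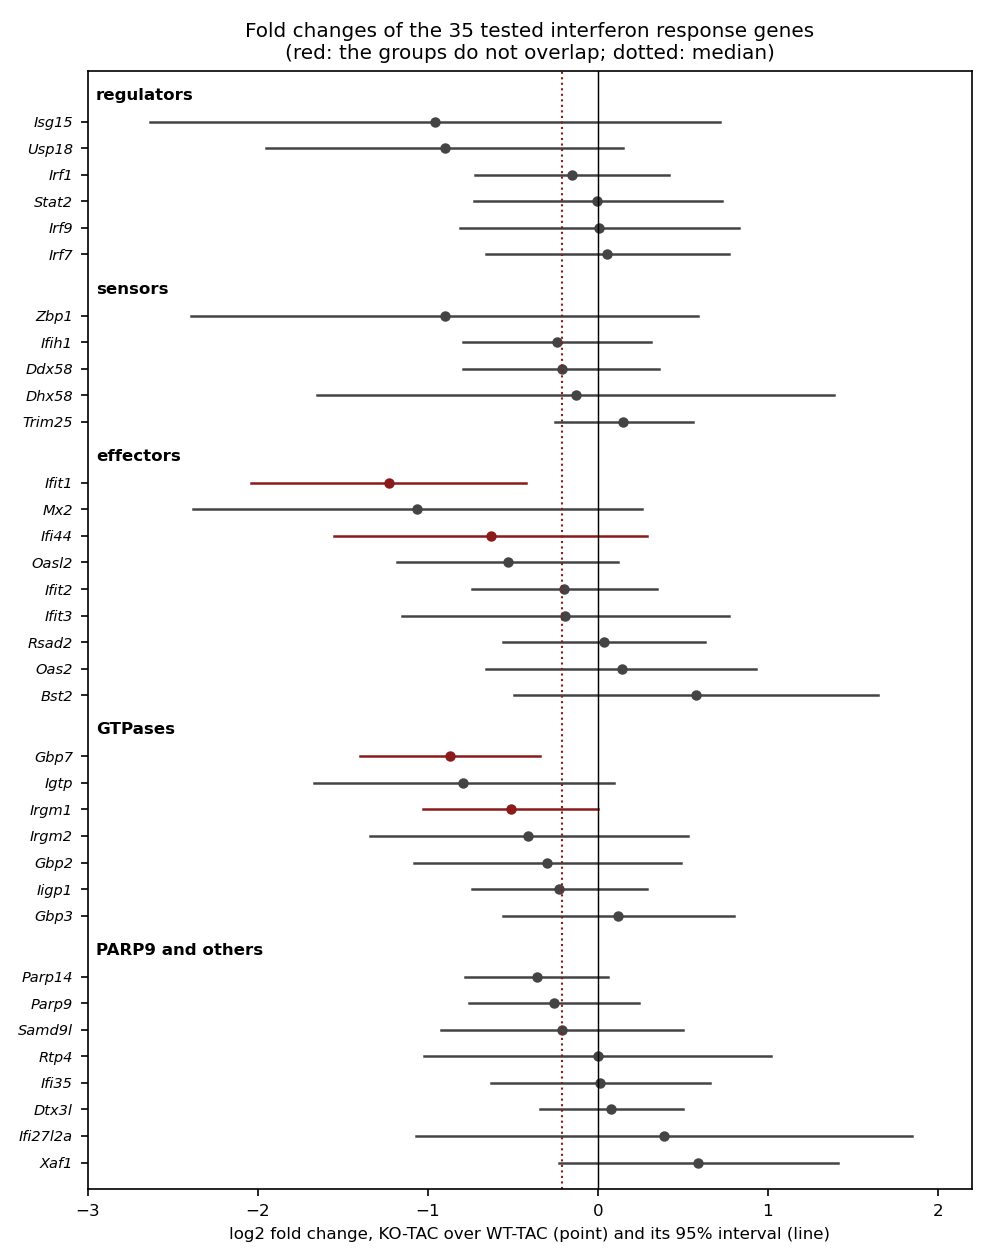
Log2 fold changes of KO-TAC over WT-TAC (x axis) of the 35 tested interferon response genes (rows, grouped by role), with 95% intervals as lines. Most intervals cross 0, the dotted median stands at −0.21, and the 4 genes in red are those whose groups do not overlap.

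Precision differed between the genes. The members had standard errors between 0.19 and 0.78 on the log2 scale. For 17 of the 35 genes the whole 95% interval lay between −1 and 1, so a difference of more than 2-fold lay outside it. Dtx3l had the interval from −0.34 to 0.50 and Trim25 from −0.25 to 0.56. Lowly expressed genes were left far wider, from −2.63 to 0.72 for Isg15 and from −2.39 to 0.59 for Zbp1.

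The transcription factors that carry the signal had fitted differences near 0, and the intervals of Stat2, Irf9 and Irf7 reached at least 0.66 on the log2 scale to either side. Stat2, a transcription factor of type I interferon signalling, had 31.0, 23.1 and 13.4 CPM in the KO-TAC libraries, against 31.9, 15.4 and 20.5 CPM in the WT-TAC libraries. The ranges overlap almost fully, and the log2 fold change was −0.0021 ± 0.34 (SE), with a 95% interval from −0.73 to 0.73. Irf9, the subunit that recognises the ISRE, had 25, 21.9 and 7.39 CPM in KO-TAC, against 17.5, 21.8 and 14.7 CPM in WT-TAC. The first 2 KO-TAC libraries lie above every WT-TAC library and the third lies below them all, and the log2 fold change was 0.0089 ± 0.38 (SE). Irf7, which amplifies interferon production, had 18.1, 10.8 and 8.42 CPM in KO-TAC, against 10.9, 12.4 and 12.7 CPM in WT-TAC, a log2 fold change of 0.052 ± 0.33 (SE). Irf1, an activator shared with type II interferon, averaged 20.1 ± 5.73 CPM in KO-TAC and 22.3 ± 1.75 CPM in WT-TAC (SD, n = 3 each), a log2 fold change of −0.15 ± 0.27 (SE). In KO-TAC replicate 3 all 4 of these factors had their lowest value of the 6 libraries. The fold changes of Stat2, Irf9 and Irf7 took either sign when 1 library was left out, between −0.30 and 0.32 for Stat2, −0.29 and 0.38 for Irf9, and −0.32 and 0.26 for Irf7.

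Isg15 and Usp18, which act on each other, had wide spreads. Isg15, a ubiquitin-like protein that is attached to other proteins, had 1.75, 3.52 and 0.443 CPM in KO-TAC, against 6.92, 2.52 and 1.92 CPM in WT-TAC. Usp18, the protease that removes Isg15 and also damps the interferon receptor, had 6.14, 3.89 and 3.40 CPM in KO-TAC, against 13.7, 7.35 and 4.11 CPM in WT-TAC. In both genes WT-TAC replicate 1 is the highest library and KO-TAC replicate 3 the lowest, and the groups overlap. The log2 fold change was −0.96 ± 0.78 (SE) for Isg15 and −0.90 ± 0.49 (SE) for Usp18. Without WT-TAC replicate 1 they were −0.21 and −0.36. For Isg15 leaving out KO-TAC replicate 3 gave −0.50, and leaving out KO-TAC replicate 2 gave −1.76. A transcript listed as AC151275.1 is 95.2% identical to Isg15 over 63.8% of its transcript, so its level is uncertain.

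Among the sensors of foreign nucleic acid, the 2 main detectors of viral RNA overlapped between genotypes. Ddx58, which encodes RIG-I, had 30, 17.6 and 18.6 CPM in KO-TAC, against 22.2, 30.2 and 24.1 CPM in WT-TAC, a log2 fold change of −0.21 ± 0.27 (SE). Ifih1, which encodes MDA5, had 20.5, 18.3 and 19.4 CPM in KO-TAC, against 23.4, 17.3 and 28.1 CPM in WT-TAC, a log2 fold change of −0.24 ± 0.25 (SE). Ifih1 averaged 19.4 ± 1.05 CPM in KO-TAC and 22.9 ± 5.39 CPM in WT-TAC (SD, n = 3 each), and the KO-TAC libraries all lie inside the WT-TAC range. Both values shrank when 1 library was left out, to −0.070 for Ddx58 without KO-TAC replicate 2 and −0.068 for Ifih1 without WT-TAC replicate 3. Leaving out KO-TAC replicate 1 gave −0.49 for Ddx58, KO-TAC replicate 3 gave −0.11 and WT-TAC replicate 2 gave −0.071, and Ifih1 was −0.41 without WT-TAC replicate 2. Zbp1, a sensor of left-handed nucleic acid that can start necroptosis, had 2.48, 1.46 and 0.739 CPM in KO-TAC, against 3.46, 2.18 and 3.15 CPM in WT-TAC. Only the highest KO-TAC library reaches into the WT-TAC range, and the log2 fold change was −0.90 ± 0.69 (SE). It was −0.57 when KO-TAC replicate 3 was left out and −1.38 when KO-TAC replicate 1 was. Dhx58, which encodes LGP2, a relative of RIG-I without its signalling domains, had a log2 fold change of −0.13 ± 0.70 (SE), and Trim25, a ubiquitin ligase that acts on RIG-I, 0.15 ± 0.19 (SE).

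Of the antiviral effectors, Ifit1 had the largest fitted difference of all tested members. Ifit1, a protein that binds the ends of foreign RNA, had 9.5, 4.5 and 4.14 CPM in KO-TAC, against 16.2, 13.8 and 12.5 CPM in WT-TAC. Every KO-TAC library lies below every WT-TAC library. The log2 fold change was −1.23 ± 0.38 (SE), a fold of 0.427 with a 95% interval from 0.243 to 0.750, and edgeR gave an unadjusted p of 0.00603 and an adjusted one of 0.999. It ran from −1.70 to −1.02 when each library was dropped in turn, and over all alternatives its adjusted p ran from 0.477 upward. Ifit1 lies on chromosome 19 from 34640871 to 34650009 (GRCm38, plus strand), in a cluster with Ifit2 and Ifit3 that starts 11.8 Mb from Mir204 on the same chromosome. Its cluster neighbours had groups that overlap, with log2 fold changes of −0.20 ± 0.25 (SE) for Ifit2 and −0.19 ± 0.45 (SE) for Ifit3. Ifit3 is uncertain, since Ifit3b is 97.8% identical to it over 97.4% of its transcript.

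Mx2 and Oasl2 had lower fitted levels in KO-TAC with groups that overlap. Mx2, a dynamin-like GTPase gene annotated as a polymorphic pseudogene in the mouse reference, had 4.53, 2.92 and 1.18 CPM in KO-TAC, against 10.5, 3.79 and 3.83 CPM in WT-TAC. WT-TAC replicate 1 stands far above the other libraries, and the log2 fold change of −1.06 ± 0.61 (SE) was −0.41 without it. It was −0.69 without KO-TAC replicate 3. Oasl2, of the oligoadenylate synthetase family, had 10.2, 14.7 and 9.90 CPM in KO-TAC, against 21.6, 13.5 and 15.5 CPM in WT-TAC. Its log2 fold change was −0.53 ± 0.30 (SE) with all libraries and −0.32 without WT-TAC replicate 1.

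Ifi44, an interferon-induced gene, had 3.95, 3.52 and 4.88 CPM in KO-TAC, against 5.19, 6.89 and 6.98 CPM in WT-TAC. Its groups do not overlap, by a narrow gap, and the log2 fold change was −0.63 ± 0.43 (SE) with an unadjusted p of 0.165 in edgeR. Rsad2, which encodes viperin, had a log2 fold change of 0.036 ± 0.28 (SE), and Oas2, another oligoadenylate synthetase, 0.14 ± 0.37 (SE). Bst2, which encodes tetherin, a protein that holds virus particles at the cell surface, had 14.5, 11.7 and 2.81 CPM in KO-TAC, against 7.86, 5.85 and 5.75 CPM in WT-TAC. For Bst2 the KO-TAC libraries lie on both sides of the WT-TAC range, with a log2 fold change of 0.58 ± 0.50 (SE).

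Mx1 and Oas1a did not pass the filter on low counts. Mx1, the antiviral GTPase of the nucleus in mice, had 11, 4 and 9 counts in the KO-TAC libraries, against 56, 12 and 10 counts in the WT-TAC libraries, so that WT-TAC replicate 1 held most of them. Mx1 and Mx2 are 94.8% identical over 27.2% of the Mx1 transcript, and their levels are uncertain. Oas1a had 7, 1 and 0 counts in KO-TAC, against 0, 4 and 5 counts in WT-TAC. A count of 0 allows up to 3 counts, or 0.443 CPM in KO-TAC replicate 3 and 0.472 CPM in WT-TAC replicate 1, for counting error only. Oas1g is 97.6% identical to Oas1a over 98.7% of its transcript.

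**Figure D2:**
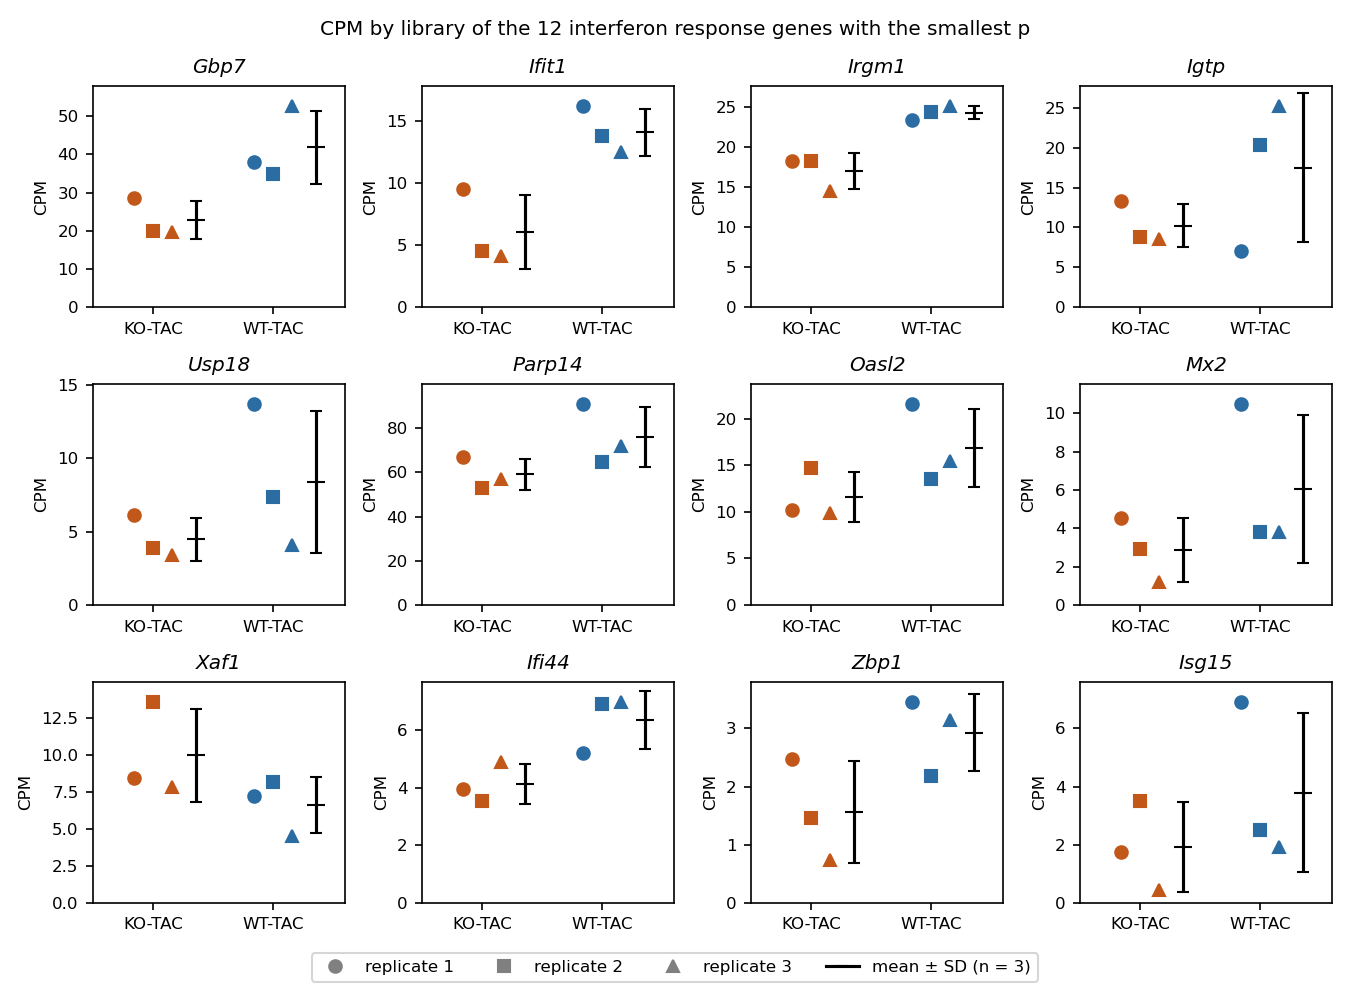
CPM in each library (y axis, from 0) of the 12 interferon response genes with the smallest p, KO-TAC in orange and WT-TAC in blue, with replicates by symbol and bars for the mean and SD of 3 libraries. Ifit1, Gbp7, Irgm1 and Ifi44 have groups that do not overlap. WT-TAC replicate 1 (circle) is the highest library of Ifit1, Usp18, Parp14, Oasl2, Mx2, Zbp1 and Isg15 and the lowest of Igtp.

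The interferon-inducible GTPases, which attack the membranes of vacuoles that hold pathogens, had a lower fitted level in KO-TAC in 6 of 7 genes and a median of −0.41 on the log2 scale, and 0 of the 7 were called. Gbp7, a guanylate-binding protein, had 28.6, 20 and 19.7 CPM in KO-TAC, against 37.9, 34.8 and 52.6 CPM in WT-TAC. The KO-TAC libraries all lie below the WT-TAC libraries. Its log2 fold change was −0.87 ± 0.25 (SE), a fold of 0.545 with a 95% interval from 0.378 to 0.788, and its unadjusted p of 0.00340 in edgeR was the smallest of the members, where adjustment over all genes gave 0.999. Dropping each library in turn, the value ran from −1.07 to −0.67, and its adjusted p ran from 0.255 upward over all alternatives. Gbp7 lies on chromosome 3 from 142530342 to 142550149 (GRCm38, plus strand), and 11.3% of its exon bases are shared with a processed pseudogene on the same strand, Gm43802, whose reads cannot be told apart. Its neighbours Gbp2 and Gbp3 had log2 fold changes of −0.30 ± 0.36 and 0.12 ± 0.32 (SE), with groups that overlap.

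Irgm1, Irgm2 and Igtp are immunity-related GTPases that regulate the others of their family. Irgm1 had 18.3, 18.3 and 14.5 CPM in KO-TAC, against 23.4, 24.4 and 25.1 CPM in WT-TAC. It was the member with the tightest WT-TAC libraries for its level, at 24.3 ± 0.821 CPM, against 17.0 ± 2.21 CPM in KO-TAC (SD, n = 3 each). The groups do not overlap, and the log2 fold change was −0.51 ± 0.24 (SE), with an unadjusted p of 0.0507 in edgeR. Igtp had 13.3, 8.75 and 8.57 CPM in KO-TAC, against 7.08, 20.3 and 25.2 CPM in WT-TAC. WT-TAC replicate 1 lies below all KO-TAC libraries and the other WT-TAC libraries lie above them. The log2 fold change of Igtp was −0.79 ± 0.41 (SE), −1.16 without WT-TAC replicate 1 and −0.44 without WT-TAC replicate 3. Irgm2 had 23.1, 11.9 and 20.8 CPM in KO-TAC, against 10.1, 24.7 and 39.0 CPM in WT-TAC, with WT-TAC replicate 1 again the lowest library and WT-TAC replicate 3 the highest, and a log2 fold change of −0.41 ± 0.43 (SE). Iigp1, an effector of this family, averaged 45.6 ± 11.5 CPM in KO-TAC and 53.3 ± 12.3 CPM in WT-TAC (SD, n = 3 each), a log2 fold change of −0.23 ± 0.24 (SE).

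Promoter stretches are shown for 6 members, each with an ISRE match, from bases −120 to −1 before the RefSeq start (GRCm38.p6). Capitals mark matches on either strand to the ISRE core, GAAA repeated after any 2 bases, and to the GAS form, TTC and GAA with any 3 bases between, and neighbouring ISRE matches may overlap. Ifit1 and Isg15 are effector and modifier, and Gbp7 and Irgm1 are GTPases whose groups do not overlap. Ifi44, whose groups do not overlap either, is not shown, since its listed promoter has no match of either kind. The listed promoters of Oasl2 and Xaf1 have none either. Igtp and Irgm2 are neighbouring GTPases that were lowest in WT-TAC replicate 1 and highest in WT-TAC replicate 3, as was Gbp2.
Ifit1: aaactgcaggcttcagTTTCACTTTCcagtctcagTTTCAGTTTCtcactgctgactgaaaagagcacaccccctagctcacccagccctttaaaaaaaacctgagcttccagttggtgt
Isg15: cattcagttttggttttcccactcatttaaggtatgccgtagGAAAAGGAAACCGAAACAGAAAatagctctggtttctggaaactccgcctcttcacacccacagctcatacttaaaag
Gbp7: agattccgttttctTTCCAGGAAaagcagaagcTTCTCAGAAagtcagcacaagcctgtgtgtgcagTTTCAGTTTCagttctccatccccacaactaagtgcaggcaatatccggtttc
Irgm1: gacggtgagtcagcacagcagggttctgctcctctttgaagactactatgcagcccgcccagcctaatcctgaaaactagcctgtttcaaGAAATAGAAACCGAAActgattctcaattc
Igtp: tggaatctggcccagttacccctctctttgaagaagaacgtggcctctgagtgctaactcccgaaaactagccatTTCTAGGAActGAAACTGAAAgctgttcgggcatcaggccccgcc
Irgm2: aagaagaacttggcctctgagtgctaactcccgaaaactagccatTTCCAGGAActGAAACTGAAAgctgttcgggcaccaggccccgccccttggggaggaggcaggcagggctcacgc

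These stretches lie at chr19:34640769-34640888 on the plus strand for Ifit1, chr4:156200819-156200938 on the minus strand for Isg15 and chr3:142530216-142530335 on the plus strand for Gbp7. Those of the immunity-related GTPases lie at chr11:48871421-48871540 on the minus strand for Irgm1, chr11:58199436-58199555 on the plus strand for Igtp and chr11:58214857-58214976 on the plus strand for Irgm2. Over a window of 100 bases the promoters of Igtp and Irgm2 had 98 identical bases, with a GAS match 2 bases before an ISRE match in each. Ifit1 has a pair of separate ISRE matches, Isg15 has 3 that overlap, and Gbp7 has a pair of GAS matches upstream of 1 ISRE match. Irgm2 and Igtp also share 162 exon bases on the same strand, and their reads there cannot be told apart.

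Of the 26 members with a RefSeq promoter of 300 bases, 15 (57.7%) held an ISRE match, against 3.66% of the tested genes with a promoter. A GAS match stood in 8 of the 26 (30.8%), against 8.22% of the tested genes with a promoter. The 14 tested members with an ISRE match had a median of −0.27 on the log2 scale, 11 of them lower in KO-TAC, and the 11 with a promoter but no match had a median of 0.0089, with 5 lower. This difference was not tested, and a missing match says only that these letters are not in the window. Tested members without a listed promoter stand in neither set. Their log2 fold changes ran from −1.06 for Mx2 to 0.39 for Ifi27l2a.

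The PARP9 complex and the remaining members were split in direction, 3 of 8 being lower, and stood at a median of 0.0082 on the log2 scale. Parp14, which attaches ADP-ribose to other proteins, had 66.9, 53.1 and 56.9 CPM in KO-TAC, against 90.9, 64.5 and 72.0 CPM in WT-TAC. The highest KO-TAC library lies just above the lowest WT-TAC library, and the log2 fold change was −0.36 ± 0.20 (SE), or −0.22 without WT-TAC replicate 1. Parp9 and Dtx3l, which form a ubiquitin ligase complex, had −0.26 ± 0.23 and 0.080 ± 0.20 (SE). They are head-to-head genes that share 458 exon bases on opposite strands, which cannot be told apart where strand was not kept. Xaf1, which antagonises the apoptosis inhibitor XIAP, had 8.47, 13.6 and 7.83 CPM in KO-TAC, against 7.24, 8.15 and 4.52 CPM in WT-TAC. It was the only 1 of the 12 members with the smallest p to have a higher fitted level in KO-TAC, with a log2 fold change of 0.59 ± 0.38 (SE) that was 0.30 without KO-TAC replicate 2 and 0.38 without WT-TAC replicate 3. Samd9l, an antiviral protein, had −0.21 ± 0.33, Ifi35, a leucine zipper protein, 0.014 ± 0.30 and Rtp4, a chaperone of membrane receptors, 0.0023 ± 0.47 (SE). Ifi27l2a had 23.7, 13.7 and 9.31 CPM in KO-TAC, against 2.99, 9.30 and 23.3 CPM in WT-TAC. The lowest library and 1 of the 2 highest both belong to WT-TAC, and the log2 fold change was 0.39 ± 0.64 (SE). Ifi27l2b is 90.7% identical to it over 51.0% of its transcript.

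The members also differed between libraries of 1 genotype. KO-TAC replicate 3 was the lowest of the 6 libraries for 17 of the 35 tested members, where it was the lowest for 20.4% of all tested genes. KO-TAC replicate 1 was the highest for 12 of the 35, where it was the highest for 17.3% of all tested genes. WT-TAC replicate 1 was the highest for 11 and WT-TAC replicate 3 for 9, against 22.1% and 13.7% of all tested genes. KO-TAC replicates 1 and 3 were picked after the values were seen, for those counts, so their difference is a description only. Between them 32 of 35 members were higher in KO-TAC replicate 1, with a median log2 difference of 0.68, against 52.0% of all tested genes and a median of 0.029. Summed over the 37 members, the KO-TAC libraries had 787, 605 and 568 CPM and the WT-TAC libraries 742, 701 and 814 CPM. The summed level averaged 653 ± 118 CPM in KO-TAC and 752 ± 57.0 CPM in WT-TAC (SD, n = 3 each), with ranges that overlap.

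Summed markers of cardiac muscle, blood endothelium and macrophages moved with this split of the KO-TAC libraries. The 9 cardiac muscle markers summed to 137167, 170711 and 213471 CPM in KO-TAC, against 158354, 169653 and 173999 CPM in WT-TAC. This sum was highest in the KO-TAC library where the members were lowest, and Ttn and Myh6 made up most of it. Within KO-TAC, Ttn, Myh6, Ryr2, Pln, Atp2a2 and Tnni3 were highest in replicate 3. Tnnt2, Actc1 and Myl2 were highest in replicate 2, and Myl2 had 5090, 5760 and 5030 CPM. The 11 blood endothelial markers summed to 2156, 1775 and 1285 CPM in KO-TAC, against 1321, 1428 and 1304 CPM in WT-TAC. Of these, Vwf alone had 680, 375 and 154 CPM in KO-TAC, where Cdh5, Flt1 and Egfl7 were highest in replicate 2. The 19 macrophage and monocyte markers summed to 558, 362 and 311 CPM in KO-TAC, against 453, 393 and 383 CPM in WT-TAC. The part of these cell types in the members' values was not tested. The cardiac muscle markers, Ttn and Myh6 among them, were abundant in every library, as the labelled tissue requires.

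**Figure D3:**
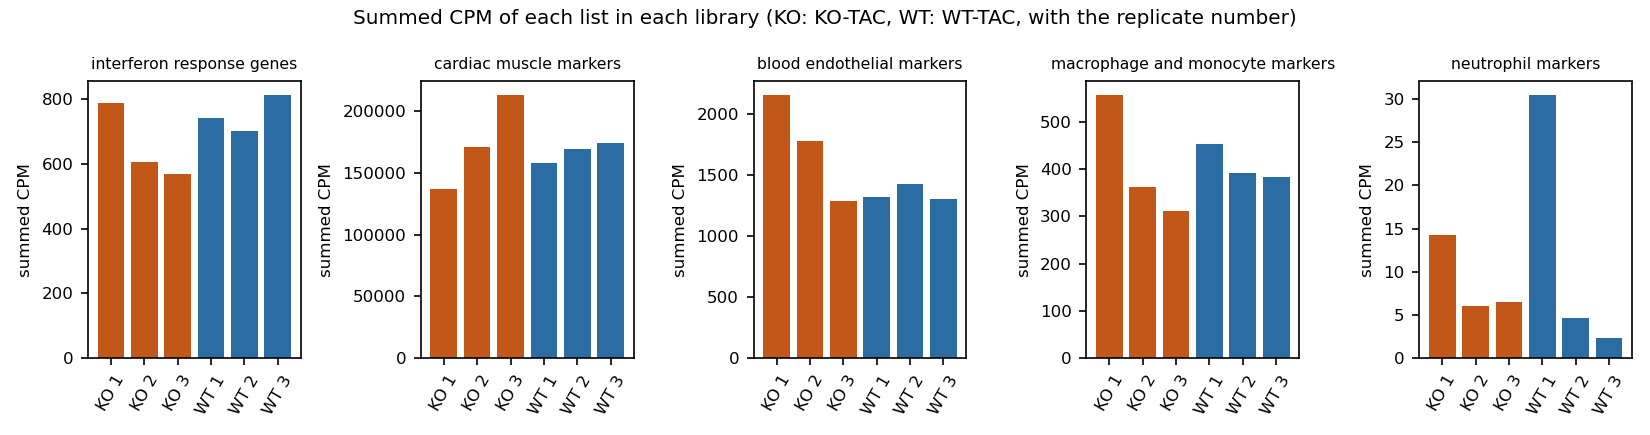
Summed CPM (y axes, from 0) of the interferon response genes and of 4 lists of cell type markers in each library, KO-TAC in orange and WT-TAC in blue. KO-TAC replicate 1 is high and KO-TAC replicate 3 low in the interferon response, endothelial and macrophage panels, the cardiac muscle panel runs the other way, and neutrophil markers peak in WT-TAC replicate 1 at 30.5 CPM.

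Within WT-TAC the members fell into sets that were high in different libraries, a pattern chosen after the values were seen and given without a test. All 7 GTPases were higher in WT-TAC replicate 3 than in WT-TAC replicate 1, with a median log2 difference of −1.11 for replicate 1 minus replicate 3. The differences ran from −1.93 for Irgm2 to −0.096 for Irgm1, and Ifi27l2a, which is no GTPase, had −2.85. Of the regulators 5 of 6 were instead higher in WT-TAC replicate 1, with a median difference of 0.44, led by Isg15 at 1.72 and Usp18 at 1.67. Of the 9 tested effectors 6 were higher in WT-TAC replicate 1, with Mx2 at 1.40. Over all tested genes the median difference was −0.0032. Summed neutrophil markers were also high in WT-TAC replicate 1: the 6 in the table summed to 14.3, 6.08 and 6.50 CPM in KO-TAC, against 30.5, 4.59 and 2.33 CPM in WT-TAC. S100a8, S100a9 and Csf3r carried that peak, at 8.34, 7.08 and 13.2 CPM in WT-TAC replicate 1. Cxcr2, Retnlg and Mmp8, with at most 7 counts in any library, were highest in a KO-TAC library. Markers of macrophages and monocytes were higher in WT-TAC replicate 1 than in replicate 3 for 14 of 17 genes. Cardiac muscle markers were higher in replicate 3 for 8 of 9. The part of these cells in the pattern was not tested.

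**Figure D4:**
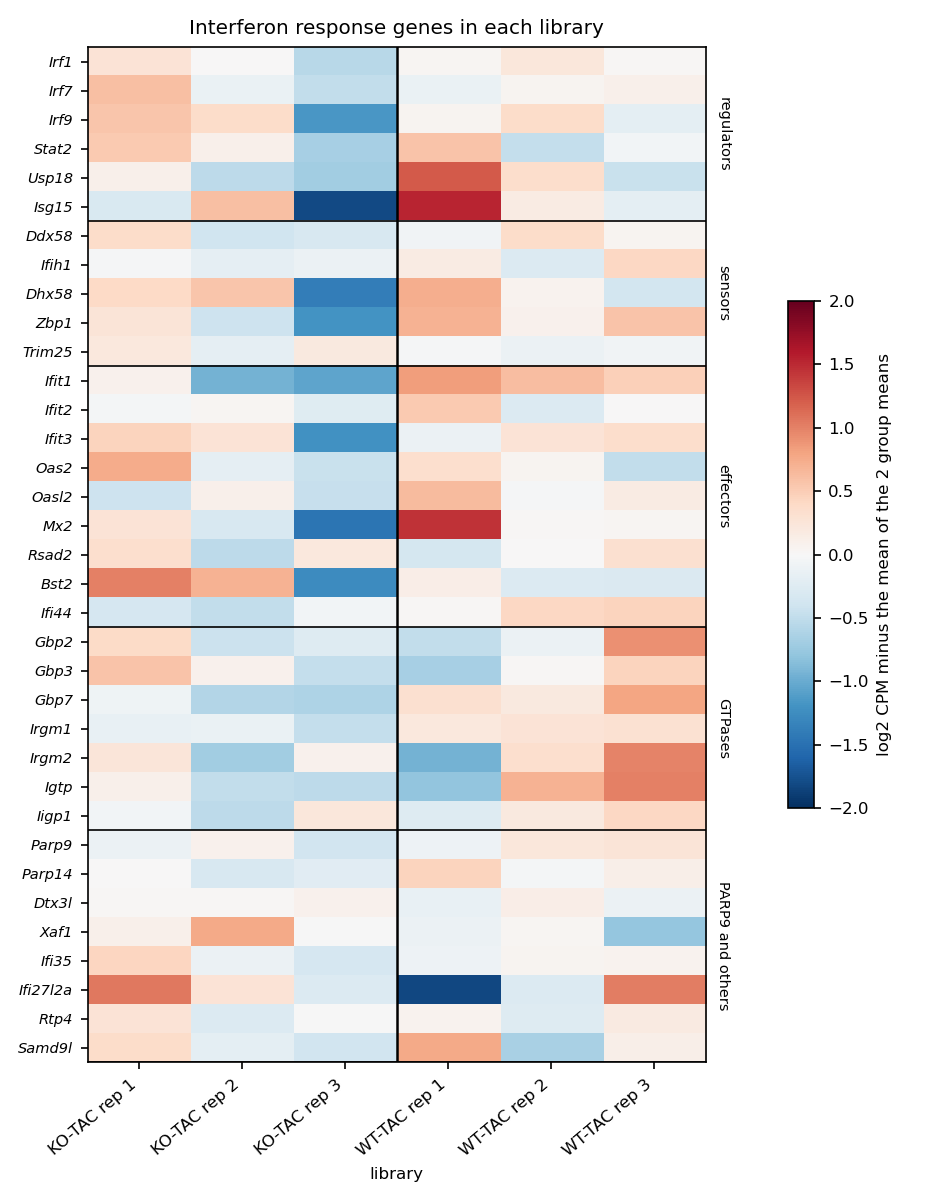
Log2 CPM of each tested interferon response gene (rows, by role) in each library (columns, KO-TAC left), as the difference from the mean of both group means; red is higher and blue lower. Many rows are blue in KO-TAC replicate 3, and in WT-TAC replicate 1 Isg15, Usp18 and Mx2 are red where most GTPases and Ifi27l2a are blue.

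Upstream of the response, 0 interferon genes had enough counts to be tested. Of 12 interferon genes, the type I genes Ifnb1, Ifnk, Ifne and 6 of the Ifna family, type II Ifng, and Ifnl2 and Ifnl3, 10 had 0 counts in all 6 libraries, where a count of 0 allows up to 0.365 to 0.443 CPM in KO-TAC and 0.344 to 0.472 CPM in WT-TAC. WT-TAC replicate 3 held 2 counts of Ifna4 and 3 of Ifng. Of the 16 tested receptor and signalling genes 10 were lower and 6 higher in KO-TAC, 0 were called, and the median on the log2 scale was −0.013. Over all tested genes 49.8% were lower and 0.024% were called. The receptor chains Ifnar1 and Ifnar2 had log2 fold changes of 0.040 ± 0.21 and 0.13 ± 0.21 (SE). Among the smallest p of that list were Ifngr2, a chain of the type II receptor, at −0.34 ± 0.23, Pias1, a SUMO ligase, at −0.34 ± 0.27, and Ifnlr1, a chain of the type III receptor, at 0.71 ± 0.57 (SE).

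Genes that sense nucleic acid or induce interferon gave the same count of calls, 0 of 23 tested, against 0.024% of all tested genes. Of the 23, 14 were lower and 9 higher, around a median of −0.058 on the log2 scale, where 49.8% of all tested genes were lower. Those with the smallest p were Samhd1, which breaks down nucleotides, at −0.33 ± 0.21, Ikbke, a kinase of Irf3 and Irf7, at −0.86 ± 0.63, the receptor Tlr4 at 0.27 ± 0.21 and Rnaseh2c, a subunit of an RNA-DNA hybrid nuclease, at −0.40 ± 0.36 (SE).

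A further list of 78 interferon-stimulated genes had 60 tested, of which 45 had a lower fitted level in KO-TAC and 15 a higher one, and 0 were called. Their median on the log2 scale was −0.16, where 49.8% of all tested genes were lower and 0.024% were called. At an unadjusted p under 0.05 in edgeR there were 2 of the 60, both lower, a share near the 2.93% of all tested genes (1.57% lower). They were Parp10, an ADP-ribosyltransferase, at −0.76 ± 0.32, and Ddx60, a helicase, at −0.69 ± 0.30 (SE). Parp10 had 11, 7.65 and 7.39 CPM in KO-TAC, against 18.9, 14.1 and 11.2 CPM in WT-TAC. Ddx60 had 12.1, 7.65 and 9.75 CPM in KO-TAC, against 16.7, 17.2 and 13.8 CPM in WT-TAC. In both genes the groups do not overlap, as in Slfn8 at −0.97 ± 0.45 and Ifi204, a DNA-binding protein, at −0.75 ± 0.39 (SE). In all, 5 of the 60 had KO-TAC below WT-TAC without overlap and 1 the other way, against 3.72% and 4.26% of all tested genes.

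**Figure D5:**
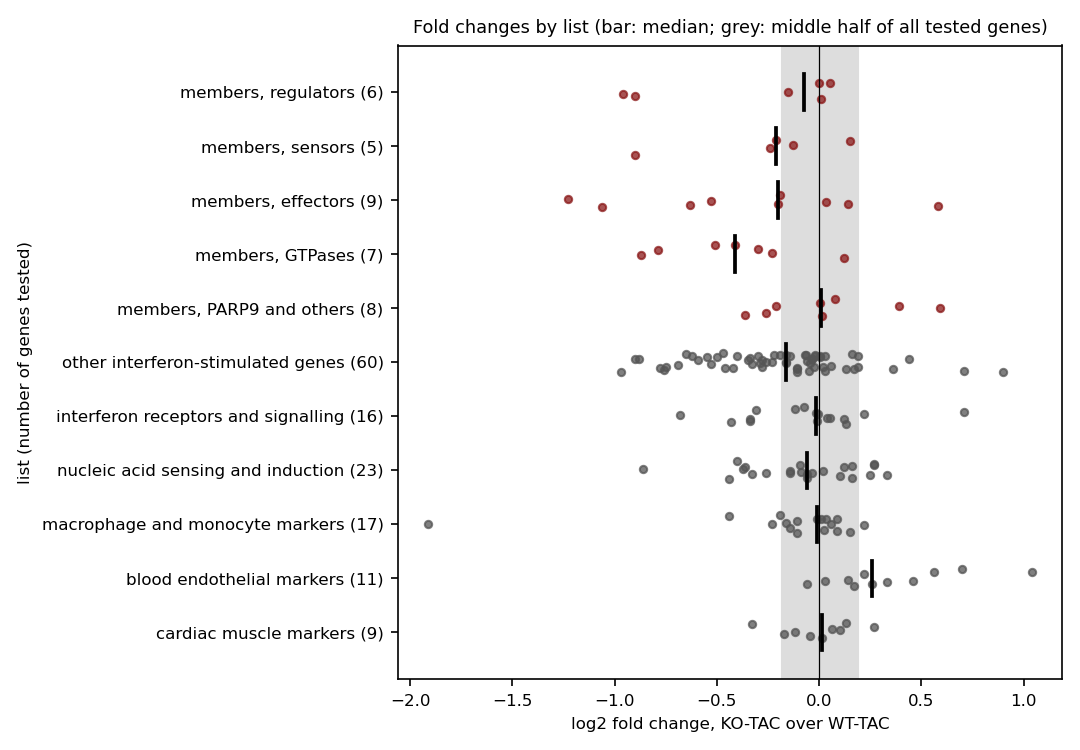
Log2 fold changes of KO-TAC over WT-TAC (x axis) of tested genes by role or list (rows, number tested in brackets), members in red, with a bar at each median and a grey band for the interquartile range of all tested genes. The medians stand at −0.41 for the GTPases, −0.16 for the further interferon-stimulated genes and 0.26 for blood endothelial markers.

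Markers of leukocytes, endothelium and cardiac muscle gave 0 called genes in edgeR, against 0.024% of all tested genes. Of the 17 tested macrophage and monocyte markers 9 were lower and 8 higher, around a median of −0.011 on the log2 scale, and their summed level ran from 311 to 558 CPM in KO-TAC and from 383 to 453 CPM in WT-TAC. Ccr2, the chemokine receptor of recruited monocytes, had 1.75, 1.94 and 1.77 CPM in KO-TAC, against 9.75, 4.13 and 6.85 CPM in WT-TAC, without overlap. Its log2 fold change was −1.91 ± 0.53 (SE), and edgeR gave it an unadjusted p of 0.00294 and an adjusted one of 0.999. The complement gene C1qb had −0.23 ± 0.28, Cd14 −0.44 ± 0.48 and Mrc1, a marker of resident macrophages, 0.22 ± 0.24 (SE). Of 13 T and NK cell markers 11 were in the table and 0 were tested, with sums of 1.17 to 2.51 CPM in KO-TAC and 1.89 to 3.33 CPM in WT-TAC. The 5 B cell markers in the table summed to 5.02 to 7.53 CPM in KO-TAC and 1.51 to 7.55 CPM in WT-TAC. Of the plasmacytoid dendritic cell markers, 2 of 6 were tested and 0 called, Klk1 had 0 counts in every library and Siglech at most 3. Of the neutrophil markers 2 were tested, Csf3r at −0.76 ± 0.73 and S100a9 at 0.13 ± 1.06 (SE), and of the cardiac muscle markers 4 of 9 were lower and 5 higher. Blood endothelial markers had a median of 0.26, with 10 of 11 higher in KO-TAC and 0 called. Among them Kdr, a receptor of vascular growth factor, had 0.56 ± 0.20 and Cldn5, a tight junction protein, 1.04 ± 0.37 (SE), each without overlap between the groups. For these 2 genes edgeR gave unadjusted p of 0.0134 and 0.014, and an adjusted p of 0.999 for each. Of all tested genes 4.26% had KO-TAC above WT-TAC without overlap, and 3.72% had it below. The part of these cells in the members' values was not tested.

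Sites for the deleted microRNA stood in the members at a share near that of all tested genes. The match to the seed, AAAGGGA, stood in the longest annotated 3' UTR of 6 of the 35 tested members (17.1%), against 18.1% of the 11692 tested genes with a 3' UTR. The 6 were Oas2, Oasl2, Rsad2, Iigp1, Parp14 and Xaf1, of which 3 were lower and 3 higher in KO-TAC, and their median log2 fold change was −0.097, against −0.21 for the 29 members without a site. This difference was not tested. The sites of Parp14, with a lower fitted level in KO-TAC, and Xaf1, with a higher one, are shown with the match in capitals.
Parp14: gaagagatggaatgAAAGGGAgaggcttg
Xaf1: gggaaagtggaaagAAAGGGAaagagaag

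Levels between members can be set against each other only per length. Per kilobase of annotated exon, Ifi27l2a had the highest mean level, at 33.6 CPM per kb in KO-TAC and 25.6 CPM per kb in WT-TAC. In WT-TAC Gbp2 followed at 10.4 CPM per kb, against 8.53 CPM per kb in KO-TAC, and then Iigp1 at 9.16 CPM per kb, against 7.83 CPM per kb in KO-TAC. The level of Gbp7 was 4.06 CPM per kb in KO-TAC and 7.44 CPM per kb in WT-TAC. For Ifit1 it was 2.28 CPM per kb in KO-TAC and 5.33 CPM per kb in WT-TAC. Oas1a had the lowest level, at 0.202 CPM per kb in both genotypes.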

How the data were processed

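The members and gene lists were chosen with earlier results of these data known. The authors deposited raw counts, whole numbers per gene symbol and library, with no normalization. Per the submitters' processing notes, the tools FastQC, HISAT2 2.1.0, Subread and edgeR and the builds mm10 and GRCm38 are named, without saying which did what. Per the labels' protocols the kit was plain or stranded, and the sources used here do not say which one a library had.

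The test was a robust quasi-likelihood fit in edgeR 4.0.16 (R 4.3.3) of KO-TAC against WT-TAC with no covariate, after filterByExpr with a minimum count of 10, TMM scaling and Benjamini-Hochberg adjustment over 12487 genes. Log2 CPM used a prior count of 2. The fit was tested on simulated data. The planted changes were larger than any fitted change of the members, so recovery at the members' sizes was not tested. Values in every library are given for the 12 tested members with the smallest p and for Irf7, Irf9, Stat2, Isg15, Ddx58 and Ifih1. Of the other lists, Ifnar1, Ifnar2 and up to 4 genes of a list with the smallest p are named. Values per library of Bst2, Irgm2 and Ifi27l2a were added after they were seen. Other settings tried were scaling by RLE, by upper quartiles or not at all, a minimum count of 30 or none, a fit without robust estimation, DESeq2 1.42.0, limma-voom (limma 3.58.1), a replicate block, each library left out and an adjusted p under 0.1. Positions and UTRs come from GENCODE M21 (GRCm38), promoters and the microRNA from RefSeq (GRCm38.p6). Near-identical copies are those with at least 90% identity over at least 20% of a transcript. Some results are not reported here. Library totals of 6411538 to 8571737 counts and a common biological coefficient of variation of 0.286 set the precision. Intervals and limits on 0 counts cover counting error or the fitted spread only.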

Additional observations from a re-analysis of the deposited data

How the results depend on the processing

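Of the 35 tested members 0 were called under each of the 15 alternative fits and at an adjusted p under 0.1, and the lowest adjusted p of any member was 0.255, for Gbp7 without a filter. The count over all genes was 3 in the main analysis, 21 without a filter, 16 in DESeq2, 0 in limma-voom, 6 with the replicate block, and 0 to 7 with 1 library left out, which was 0 without WT-TAC replicate 1, 6 when KO-TAC replicate 3 was left out and 7 when KO-TAC replicate 2 was. Members at an unadjusted p under 0.05 were 2, against 4 without a filter, 4 with the replicate block, and 2 to 5 with 1 library left out, which was 4 without WT-TAC replicate 1 and 5 without WT-TAC replicate 3. The number lower in KO-TAC was 23 of 35, 21 to 32 of 36 with 1 library left out, 22 to 27 of 35 under the other scalings, tools and the block, 24 of 37 without a filter and 19 of 31 at a minimum count of 30. The median log2 fold change ran from −0.34 to −0.11 with 1 library left out. Of 252 values for 17 named genes, 236 kept direction and side of the threshold and 16, of 3 genes, turned sign. Irf7 was −0.030 in limma-voom and −0.014 with the replicate block, and −0.32 to 0.26 with 1 library left out. Irf9 was −0.0056 without scaling, −0.14 in limma-voom and −0.12 with the replicate block, and −0.29 to 0.38 with 1 library left out. Stat2 was 0.0092 with upper-quartile scaling, 0.00066 without a filter and 0.020 in limma-voom, and −0.30 to 0.32 with 1 library left out. The cause of these changes was not tested. The deviations of libraries with the same replicate number correlated at 0.135, 0.011 and 0.257, against −0.223 to 0.146 for libraries with different numbers. KO-TAC replicates 1 and 3 correlated best with the WT-TAC library of the same number. With 3 libraries per group these values do not settle whether the number pairs them. KO-TAC replicate 2 correlated best with WT-TAC replicate 1, at 0.146. A minimum count of 30 left no value for Isg15, Mx2 and Zbp1. Depth limits the lowest members, Mx1, Oas1a, Isg15, Zbp1 and Dhx58.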
